A study of Mus musculus with 12 samples.

Results

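Transcripts of blood vessel endothelium were measured in dendritic cells sorted from mouse kidneys, as a description of how much endothelial RNA the sorted libraries held. The 10 genes were taken by name from the deposited expression table: Cdh5, Pecam1, Emcn, Kdr, Flt1, Tek, Eng, Egfl7, Plvap and Ehd3. Each was found on 1 line of the table, among 26121 genes in all. CD103+ and CD11b+ kidney dendritic cells were taken from the same 6 wild-type male mice, aged 8 to 12 weeks. Of these mice, 3 were healthy, with no injection stated for them, and 3 had received nephrotoxic antiserum 7 days earlier, which causes an immune glomerulonephritis. The 4 groups of 3 libraries are called healthy CD103+, healthy CD11b+, inflamed CD103+ and inflamed CD11b+. The mouse strain and the full sorting gate are not given in the sources used here, and the labels do not say whether libraries with the same number came from the same mouse. Before the flow sort, leukocytes had been enriched with beads against CD45, a surface protein of leukocytes.

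Endothelial cells line every kidney vessel, and in the glomerulus they form a thin, fenestrated wall through which plasma is filtered. Their junctions are held by VE-cadherin and PECAM-1, and their survival depends on vascular endothelial growth factor (VEGF), which podocytes supply, and on angiopoietins acting through Tek. Dendritic cells are leukocytes and are not known for most of these genes, but Pecam1, Flt1 and Eng are also expressed by myeloid cells. The other 7 genes are treated below as largely restricted to endothelium, a class set from general knowledge and not from these libraries.

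Values are CPM, the reads of a gene per 1000000 reads of a scaled library. The libraries held 11486182 to 26556814 reads in genes, so that 3 reads corresponded to 0.112 to 0.254 CPM. The sorted identities were clear in each group: Itgae, which encodes CD103, ranged from 55.5 to 1229 CPM in the CD103+ libraries and from 1.69 to 5.05 CPM in the CD11b+ libraries. Itgam, which encodes CD11b, ranged from 1.45 to 7.32 CPM in the CD103+ libraries and from 114 to 346 CPM in the CD11b+ libraries. Healthy CD103+ libraries differed from the other 3 groups in their makeup. The summed level of 14 kidney tubule genes was 41769 ± 9595 CPM there (mean ± SD, n = 3), against 11728 ± 5942 CPM in healthy CD11b+, 3728 ± 309 CPM in inflamed CD103+ and 4547 ± 1221 CPM in inflamed CD11b+ libraries. The summed level of 22 leukocyte genes ran the other way, at 5382 ± 2016, 14035 ± 1031, 17640 ± 745 and 19792 ± 232 CPM in the same order. The part of these differences in the results on endothelial genes was not tested, beyond the values given beside them.

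Library 2 of the healthy CD103+ group stood apart from libraries 1 and 3 in its endothelial genes. All 9 endothelial genes with at least 20 reads in the group were higher in library 2 than in both other libraries, by a median ratio of 2.81 (range 1.90 to 4.73) to the mean of the other 2. Among 22 other genes known from endothelium generally, 18 were higher there than in both others, with a median ratio of 2.61, and for 6 genes of glomerular endothelium the count was 5 and the median ratio 4.19. Genes of stroma and mesangium were also high in library 2, with 7 of 9 above both others and a median ratio of 2.10. The 14 tubule genes had a median ratio of 1.32, with 12 above both others. Genes of distal segments among them varied, with ratios of 3.06 for Slc12a3, 2.76 for Calb1, 2.50 for Aqp2, 1.63 for Umod and 0.744 for Slc12a1. None of the 22 leukocyte genes was higher than in both others, with a median ratio of 0.547. Nphs1, which encodes nephrin of the podocyte slit diaphragm, was under 0.5 CPM in each of the 3 libraries. Many results that use healthy CD103+ cells are given with and without library 2, the latter for the lists being an alternative added after the data were seen. Where no value without it is given, library 2 is included.

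**Figure D1:**
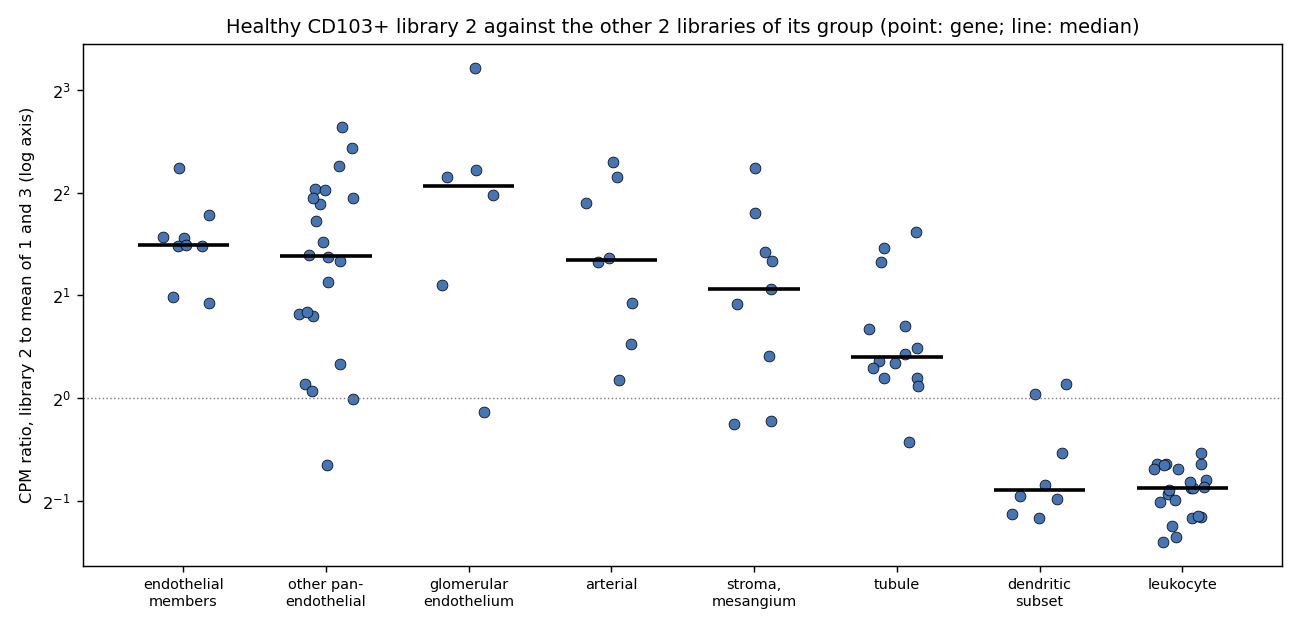
Each point is 1 gene, and the vertical axis gives its CPM in healthy CD103+ library 2 divided by the mean CPM of libraries 1 and 3, on a log axis. The horizontal lines are medians: 2.81 for the endothelial genes, 1.32 for tubule genes and 0.547 for leukocyte genes.

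Cdh5 encodes VE-cadherin, the adhesion molecule of endothelial junctions (ENSMUSG00000031871, plus strand of chromosome 8, 104101625 to 104144511 in GRCm38). It was at 2.20, 7.00 and 2.55 CPM in healthy CD103+ libraries 1, 2 and 3, and at 0.606, 0.572 and 1.31 CPM in the inflamed CD103+ libraries. The 2 groups did not overlap. Between healthy and inflamed CD103+ cells Cdh5 fell by 2.11 ± 0.59 on the log2 scale (SE, adjusted p = 0.00689), and the mean CPM was 4.73-fold lower. Without healthy library 2 the log2 change was -1.59 (adjusted p = 0.0431). CD11b+ libraries held 1.44, 1.83 and 0.826 CPM in healthy mice and 0.851, 0.767 and 2.17 CPM in inflamed mice, ranges that overlapped, and the log2 change of -0.21 ± 0.59 did not pass (adjusted p = 0.809). Here and below, changes are from limma on log2 CPM with a p adjusted over all 14180 genes tested, and a gene passed at an adjusted p under 0.05.

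In bulk libraries such as these, fewer cells of a type and less RNA per cell cannot be told apart, and neither can a gene's own change be separated from a change in the share of other RNA in the library.

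Pecam1 encodes PECAM-1 (CD31), which sits at endothelial junctions and also on platelets and many leukocytes (ENSMUSG00000020717, minus strand of chromosome 11, 106654217 to 106750628). Healthy CD103+ libraries held 13.1, 27.7 and 16.1 CPM and inflamed ones 23.1, 21.2 and 22.4 CPM, so the inflamed values lay inside the healthy range. Healthy CD11b+ libraries were at 60.8, 34.0 and 27.8 CPM and inflamed ones at 33.8, 39.1 and 41.7 CPM, again overlapping. Neither subset passed between healthy and inflamed, at 0.31 ± 0.28 (adjusted p = 0.364) in CD103+ and -0.02 ± 0.28 (adjusted p = 0.965) in CD11b+ cells. Between the healthy subsets Pecam1 was higher in CD11b+ cells, by 1.10 ± 0.28 on the log2 scale (adjusted p = 0.00581) and 1.41 without CD103+ library 2 (adjusted p = 0.000947). The nearest libraries of the healthy subsets, at 27.7 and 27.8 CPM, were almost equal, but the subsets did not overlap. When libraries were scaled to the 22 leukocyte genes, this difference turned to -0.42 (adjusted p = 0.352). That scaling moved the median of all genes in the comparison from 0.02 to -1.496.

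Emcn encodes endomucin, a mucin of the luminal surface of capillary and venous endothelium that limits leukocyte contact (ENSMUSG00000054690, plus strand of chromosome 3, 137341067 to 137432185). Among the 10 genes it had the most negative log2 change in CD103+ cells. It stood at 12.4, 56.0 and 25.4 CPM in the healthy CD103+ libraries and at 0.0505, 0 and 0.742 CPM in the inflamed ones, which correspond to 1, 0 and 17 reads. No library of one group reached the other. The log2 change was -7.83 ± 1.20 (adjusted p = 0.000112), -7.28 without healthy library 2 (adjusted p = 0.000919), and the ratio of mean CPM was 118-fold. The size of the log2 change depends on the offset of 0.5 reads at such low counts: with 4 CPM added to each value before the logarithm it was -2.85 and still passed (adjusted p = 4.26e-05).

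In CD11b+ cells Emcn was at 3.55, 11.4 and 3.78 CPM in healthy libraries and at 0.106, 1.24 and 1.95 CPM in inflamed libraries. These groups did not overlap either, but the log2 change of -2.97 ± 1.20 missed the threshold (adjusted p = 0.0721). It passed with 0.25 CPM added (-2.42, adjusted p = 0.0197), with only the CD11b+ groups fitted (adjusted p = 0.0463) and without inflamed CD103+ library 3 (adjusted p = 0.0251) or inflamed CD11b+ library 3 (-3.72, adjusted p = 0.0464). Healthy CD11b+ cells held 5.00-fold less Emcn on average than healthy CD103+ cells, a difference of -2.27 ± 1.20 that did not pass (adjusted p = 0.133, and -1.72 with adjusted p = 0.341 without CD103+ library 2). It passed with 4 CPM added (adjusted p = 0.00351), and with voom, an alternative limma fit on the recovered reads (adjusted p = 0.0229).

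The stretches of 250 bases before the transcription start are shown for Emcn and Tek, because both were at or near 0 in inflamed CD103+ cells, and for Kdr and Flt1, receptors for the same ligand whose values differed in inflamed CD103+ cells. They are from RefSeq (GRCm38.p6), 5′ to 3′ on the gene's strand. Capitals mark the letters CAGGAA, a core form of sites bound by ETS factors, which are active in endothelium and leukocytes, and ACAAAG, a core form of SOX sites, each searched on both strands (TTCCTG and CTTTGT on the other). The third motif searched, AGATAA for GATA factors (TTATCT on the other strand), was absent from these 4 windows, and no matches overlapped in them.
Emcn, chr3:137340828-137341077, plus strand: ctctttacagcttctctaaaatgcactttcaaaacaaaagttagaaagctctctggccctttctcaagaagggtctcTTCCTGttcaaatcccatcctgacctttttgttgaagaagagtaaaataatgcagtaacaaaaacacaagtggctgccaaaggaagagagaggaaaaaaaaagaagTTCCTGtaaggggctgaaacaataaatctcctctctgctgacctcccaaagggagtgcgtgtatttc
Tek, chr4:94739039-94739288, plus strand: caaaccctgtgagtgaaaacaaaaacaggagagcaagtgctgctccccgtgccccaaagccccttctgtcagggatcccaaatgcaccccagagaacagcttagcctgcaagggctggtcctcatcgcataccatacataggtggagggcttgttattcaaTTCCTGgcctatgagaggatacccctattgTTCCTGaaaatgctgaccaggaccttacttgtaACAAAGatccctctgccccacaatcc
Kdr, chr5:75978456-75978705, minus strand: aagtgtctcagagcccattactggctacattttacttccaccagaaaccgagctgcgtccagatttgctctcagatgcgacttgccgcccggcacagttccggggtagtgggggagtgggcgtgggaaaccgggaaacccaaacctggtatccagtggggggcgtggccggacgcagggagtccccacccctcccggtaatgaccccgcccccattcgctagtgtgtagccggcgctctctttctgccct
Flt1, chr5:147726012-147726261, minus strand: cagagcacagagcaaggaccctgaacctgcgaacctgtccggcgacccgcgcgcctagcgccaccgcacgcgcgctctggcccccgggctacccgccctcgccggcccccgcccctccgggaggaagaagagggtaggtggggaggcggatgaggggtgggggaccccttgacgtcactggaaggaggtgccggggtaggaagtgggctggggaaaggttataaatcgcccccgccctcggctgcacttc
Emcn and Tek each held 2 copies of the ETS letters, Tek also held the SOX letters once, and Kdr and Flt1 held none of the 3 motifs. RefSeq windows were matched for 7 of the 10 genes, 9 windows in all, since Egfl7 had 3. The ETS letters were in 4 of the 9 windows, against 25.7% of all 32851 promoters, the SOX letters in 3 against 16.5%, and the GATA letters in 0 against 9.99%. A match is a run of letters and does not show binding.

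Kdr, Flt1 and Tek encode receptor tyrosine kinases. Kdr is VEGF receptor 2, the main signalling receptor for VEGF-A on endothelium (ENSMUSG00000062960, minus strand of chromosome 5, 75932827 to 75978458). It was at 5.94, 21.0 and 6.30 CPM in healthy CD103+ libraries and at 0.303, 0.312 and 1.004 CPM in inflamed ones. These groups were far apart, with a 20.5-fold lower mean and a log2 change of -4.26 ± 0.79 (adjusted p = 0.000352), or -3.67 without healthy library 2 (adjusted p = 0.00239). In CD11b+ cells Kdr was at 0.338, 3.42 and 2.42 CPM in healthy and at 0.904, 1.70 and 2.06 CPM in inflamed libraries. Library 1 of the healthy group was lowest of the 6 and library 2 highest, so that the groups overlapped, and the log2 change was 0.02 ± 0.79 (adjusted p = 0.988). Between the healthy subsets Kdr was lower in CD11b+ cells, by 2.65 ± 0.79 on the log2 scale (adjusted p = 0.0129). That call rested on single libraries: it was -2.06 (adjusted p = 0.0666) without CD103+ library 2 and -1.68 (adjusted p = 0.0522) without CD11b+ library 1. With libraries weighted by quality it was -1.74 (adjusted p = 0.052).

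Flt1 is VEGF receptor 1, which binds VEGF-A and placental growth factor and, in a soluble form, holds them away from Kdr; monocytes and macrophages carry it too (ENSMUSG00000029648, minus strand of chromosome 5, 147561604 to 147726011). In inflamed CD103+ cells it stood at 8.23, 9.21 and 8.99 CPM, inside the healthy range of 5.34, 16.9 and 11.7 CPM. The log2 change was -0.21 ± 0.37 (adjusted p = 0.641), and without healthy library 2 it was 0.15 (adjusted p = 0.749). CD11b+ cells held less Flt1 in both states, at 3.46, 3.66 and 3.13 CPM in healthy and 1.38, 2.60 and 2.25 CPM in inflamed libraries, and the log2 change between them of -0.76 ± 0.37 did not pass (adjusted p = 0.127). Flt1 was lower in CD11b+ than in CD103+ cells by 1.57 ± 0.37 on the log2 scale in healthy mice (adjusted p = 0.0036) and by 2.12 ± 0.37 in inflamed mice (adjusted p = 0.00103), and neither pair of groups overlapped. Without CD103+ library 2 the healthy difference was -1.21 (adjusted p = 0.0206). The inflamed difference kept its direction and passed in every alternative run, between -1.08 and -2.34, whereas the healthy one was -0.91 (adjusted p = 0.0671) when libraries were weighted by quality.

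Per kilobase of exon, Flt1 and Kdr had similar levels in the healthy CD103+ libraries, with ratios of 0.601, 0.537 and 1.24. In the inflamed CD103+ libraries the ratio was 18.2, 19.7 and 5.99. The 3 inflamed CD11b+ libraries were at 1.02, 1.02 and 0.729, and the healthy CD11b+ ones at 6.85, 0.717 and 0.864. High ratios were thus seen in all inflamed CD103+ libraries and in 1 healthy CD11b+ library. They rested on few reads of Kdr: 6, 6 and 23 in the inflamed CD103+ libraries and 4 in healthy CD11b+ library 1.

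Tek encodes Tie2, the receptor for angiopoietins, which keeps endothelium quiescent (ENSMUSG00000006386, plus strand of chromosome 4, 94739289 to 94874976). Healthy CD103+ libraries held 2.07, 13.9 and 3.82 CPM and inflamed ones 0, 0.0520 and 0.175 CPM, or 0, 1 and 4 reads. All 3 inflamed libraries lay below every healthy one. The log2 change was -6.05 ± 1.12 (adjusted p = 0.000346), the mean CPM was 87.4-fold lower, and without healthy library 2 the log2 change was -5.29 (adjusted p = 0.00244). With 4 CPM added it was -1.22 (adjusted p = 0.00487). In CD11b+ cells Tek stood at 3.63, 3.61 and 1.003 CPM in healthy and at 0.0532, 0.937 and 1.54 CPM in inflamed libraries. Healthy library 3 lay inside the inflamed range, and the log2 change of -2.29 ± 1.12 did not pass (adjusted p = 0.125).

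Eng encodes endoglin, a co-receptor for BMP9 and other ligands of the transforming growth factor β (TGF-β) family on endothelium and on some macrophages (ENSMUSG00000026814, plus strand of chromosome 2, 32646595 to 32682669). It was at 2.40, 7.14 and 2.73 CPM in healthy CD103+ libraries and at 1.01, 0.520 and 0.306 CPM in inflamed ones, without overlap. The mean was 6.69-fold lower and the log2 change -2.67 ± 0.54 (adjusted p = 0.000732), or -2.19 without healthy library 2 (adjusted p = 0.00474). Healthy CD11b+ libraries, at 3.38, 4.16 and 4.96 CPM, were level with healthy CD103+ ones, the difference being 0.19 ± 0.54 (adjusted p = 0.791), or 0.68 (adjusted p = 0.352) without CD103+ library 2. Inflamed CD11b+ libraries were at 1.59, 1.19 and 3.11 CPM, all below the healthy ones, but the log2 change of -1.18 ± 0.54 did not pass (adjusted p = 0.106). In inflamed mice Eng was higher in CD11b+ than in CD103+ cells by 1.69 ± 0.54 on the log2 scale (adjusted p = 0.0457). That call was close to the threshold and was lost in 6 of the 12 fits that left out 1 library, where the adjusted p reached 0.194 without inflamed CD11b+ library 3, and also with voom (adjusted p = 0.113). Exons of Eng overlap those of Fpgs on the other strand over 1.51% of their length.

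Egfl7 encodes a secreted protein of the endothelial matrix and hosts the microRNA miR-126 (ENSMUSG00000026921, plus strand of chromosome 2, 26580014 to 26593120). Its values were 4.87, 14.6 and 5.64 CPM in healthy CD103+ libraries and 0.505, 0.260 and 0.742 CPM in inflamed ones. In CD11b+ cells they were 2.11, 4.95 and 1.48 CPM in healthy and 0.372, 0.213 and 0.824 CPM in inflamed libraries. In both subsets every inflamed library lay below every healthy one. Egfl7 fell by 3.93 ± 0.65 on the log2 scale in CD103+ cells (adjusted p = 0.000137, and -3.44 without healthy library 2) and by 2.56 ± 0.65 in CD11b+ cells (adjusted p = 0.00763). The mean CPM was 16.7-fold lower in CD103+ and 6.06-fold lower in CD11b+ cells. With 4 CPM added, the change in CD11b+ cells was -0.58 and no longer passed (adjusted p = 0.0644). Exons of Egfl7 share 11.2% of their length with Gm20532, Agpat2 and the miR-126 genes, and reads there could belong to any of them.

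Plvap and Ehd3 separate the kidney's endothelia. Plvap encodes the protein of diaphragms that span fenestrae in peritubular capillaries and is largely missing from mature glomerular endothelium (ENSMUSG00000034845, minus strand of chromosome 8, 71497765 to 71511752). It stayed under 1 CPM in all 12 libraries, at 0.134, 0.318 and 0 CPM in healthy CD103+, 0.254, 0.445 and 0 in healthy CD11b+, 0.0505, 0.0520 and 0.480 in inflamed CD103+, and 0.0532, 0.0426 and 0.300 CPM in inflamed CD11b+ libraries. The 4 groups overlapped, and Plvap was too low to be tested.

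Ehd3 encodes an endocytic ATPase known in the kidney as a gene of glomerular endothelium (ENSMUSG00000024065, plus strand of chromosome 17, 73804134 to 73832094). Healthy CD103+ libraries held 24.5, 78.7 and 31.5 CPM and inflamed ones 10.3, 11.1 and 14.5 CPM. Healthy CD11b+ libraries held 26.5, 25.4 and 31.0 CPM and inflamed ones 11.9, 11.6 and 9.67 CPM. The inflamed libraries of both subsets lay below the healthy ones and close to each other. Ehd3 fell by 1.73 ± 0.32 on the log2 scale in CD103+ cells (adjusted p = 0.000405, and -1.23 without healthy library 2) and by 1.32 ± 0.32 in CD11b+ cells (adjusted p = 0.00644). It did not pass between the subsets in healthy (-0.51 ± 0.32, adjusted p = 0.202, and -0.013 without CD103+ library 2) or inflamed mice (-0.11 ± 0.32, adjusted p = 0.871). Within each library the level of Plvap per kilobase was at most 0.109 of that of Ehd3.

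**Figure D2:**
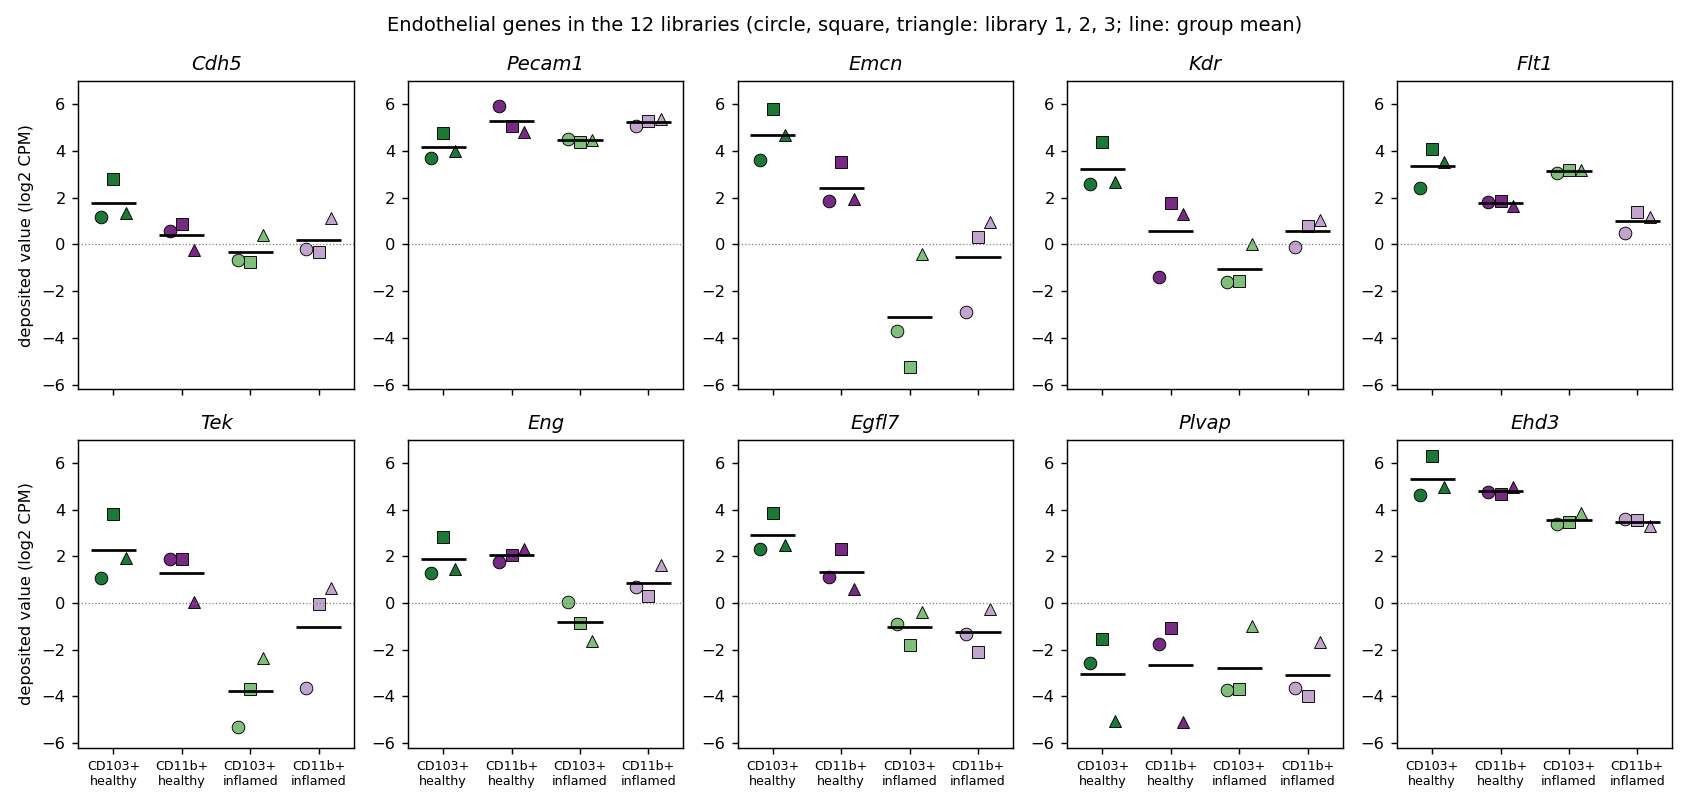
Each panel is 1 gene, the vertical axis is the deposited log2 CPM, points are the 3 libraries of a group and lines are group means, and the dotted line marks 1 CPM. Emcn, Tek, Kdr, Egfl7, Eng, Cdh5 and Ehd3 lay lower in all inflamed than in all healthy CD103+ libraries, whereas Pecam1, Flt1 and Plvap overlapped. The share of all genes without overlap was not computed, so how common such separation was among all genes is not known. In limma, another measure, 62.4% of all tested genes passed in this comparison.

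Levels can be compared between genes only per kilobase of exon. In healthy CD103+ cells the order of group means was Ehd3 at 6.85, Emcn at 5.78, Pecam1 at 3.04, Egfl7 at 2.34, Tek at 1.401, Kdr at 1.23, Eng at 1.01, Cdh5 at 0.932, Flt1 at 0.837 and Plvap at 0.0758 CPM per kilobase. Neighbours in this order differed by less than the SD of the higher one, except Plvap, which lay further below Flt1. In inflamed CD103+ cells Pecam1 came first at 3.57, followed by Ehd3 at 1.83 and Flt1 at 0.652, and Kdr, Emcn and Tek came last at 0.0598, 0.0488 and 0.0160 CPM per kilobase. Pecam1 also led in healthy and inflamed CD11b+ cells, at 6.56 and 6.13 CPM per kilobase, with Ehd3 second at 4.22 and 1.69. Within libraries, Emcn stood at 4.38, 6.22 and 7.75 times Cdh5 per kilobase in healthy CD103+ cells and at 0.0648, 0 and 0.440 times Cdh5 in inflamed CD103+ cells. The endothelial genes thus did not keep 1 ratio to each other across the groups.

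Of the 9 genes tested, 7 passed as lower in inflamed than in healthy CD103+ cells, and Pecam1 and Flt1 did not pass. Among all genes tested in this comparison, 62.4% passed in either direction, 34.6% as higher and 27.8% as lower, so that passing was common. The median log2 change was -2.67 for the 9 genes and 0.16 for all genes. The same 7 passed without healthy library 2, and 7 passed in every fit that left out 1 library. Without healthy library 2, 57.4% of all genes passed, 4655 as higher and 3486 as lower. In CD11b+ cells only Egfl7 and Ehd3 passed of 9, both lower, against 35.9% of all genes in either direction, 20.1% as higher and 15.8% as lower, and the medians were -1.18 and 0.08. Both comparisons move with the tubule genes, of which 14 of 14 were lower in inflamed CD103+ cells (median -3.50) and 7 of 14 in inflamed CD11b+ cells (median -1.24). With the mean tubule level of each library as a covariate, an alternative added after the data were seen, 0 of 9 genes passed in limma in either comparison and 0 had an unadjusted p under 0.05, while voom without that covariate called 7 and 2. In that fit 3 of all genes passed in CD103+ cells and 3093 in CD11b+ cells, and since the summed tubule levels of healthy and inflamed libraries did not overlap in either subset, the group and the covariate cannot be fully told apart.

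Whether the 2 subsets changed by different amounts was tested as the CD11b+ change minus the CD103+ change. Of the 9 genes, Kdr (4.28 ± 1.11, adjusted p = 0.0101) and Emcn (4.87 ± 1.70, adjusted p = 0.042) passed, against 35.4% of all genes in either direction and 17.7% as higher. For both genes the change in CD103+ cells was the more negative. In the same test 11 of 14 tubule genes passed as higher (median 2.34) and 18 of 22 leukocyte genes as lower (median -1.27). Without healthy CD103+ library 2, 7 tubule genes passed as higher and 16 leukocyte genes as lower, and 29.3% of all genes passed. Kdr passed in each fit that left out 1 library, with 3.69 (adjusted p = 0.0278) without healthy CD103+ library 2, whereas Emcn lost its call in 8 of the 12, including 4.31 (adjusted p = 0.102) without that library, and with voom (4.92, adjusted p = 0.199). Tek (3.76 ± 1.58, adjusted p = 0.0772) and Cdh5 (1.90 ± 0.84, adjusted p = 0.0913) did not pass, and neither did the other 5 genes.

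Between the healthy subsets, 3 of the 9 genes passed: Pecam1 as higher in CD11b+ cells and Kdr and Flt1 as lower. With all libraries, 50.0% of all genes passed in either direction, 25.4% as higher and 24.5% as lower. Without CD103+ library 2 Pecam1 and Flt1 passed, against 41.3% of all genes in that fit. Between the inflamed subsets, 2 of 9 passed, Eng as higher and Flt1 as lower in CD11b+ cells, against 17.9% of all genes, 9.66% as higher and 8.21% as lower.

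**Figure D3:**
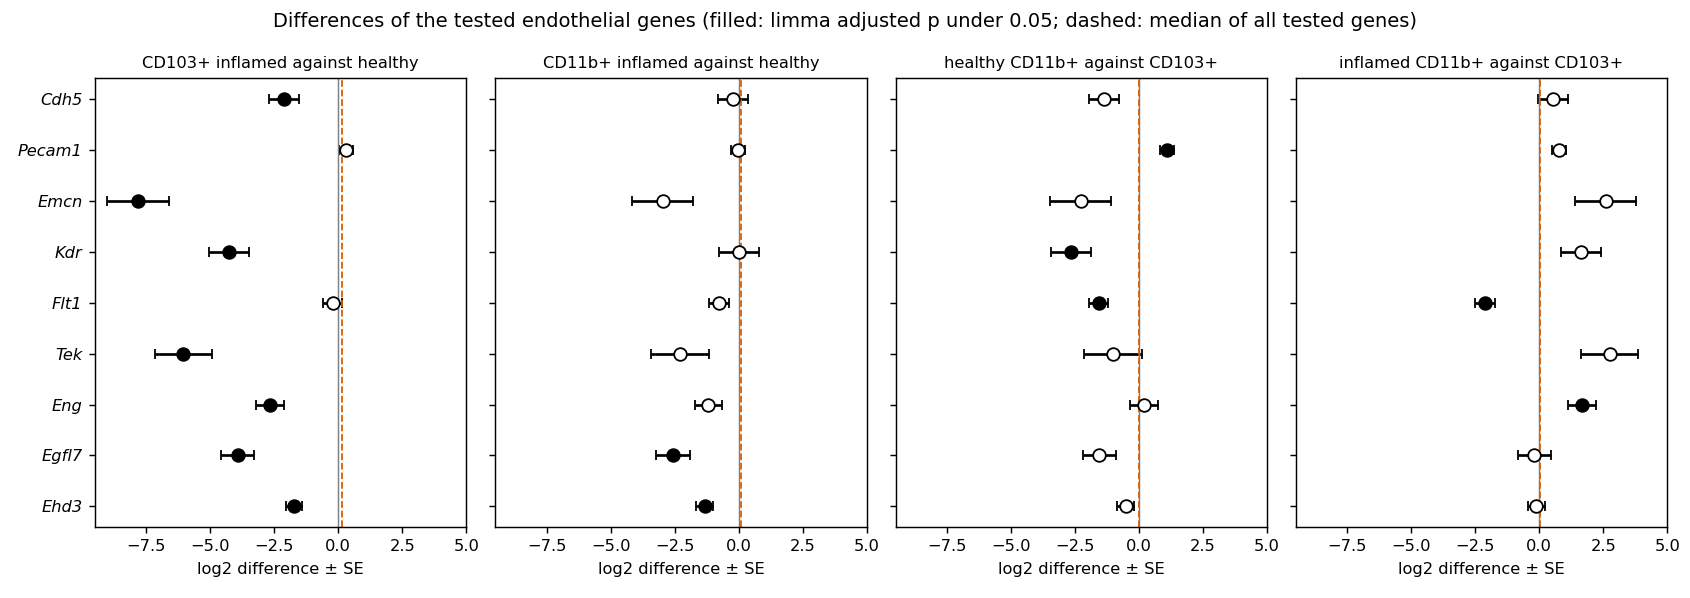
Points are log2 differences with their SE for the 9 tested genes in 4 comparisons, filled where the adjusted p was under 0.05, and the dashed line is the median of all tested genes. In inflamed against healthy CD103+ cells 7 points are filled, all below 0, while in CD11b+ cells only Egfl7 and Ehd3 are.

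The 7 endothelium-restricted genes summed to 52.1, 191.7 and 75.2 CPM in healthy CD103+ libraries, to 37.9, 51.1 and 40.5 CPM in healthy CD11b+, to 11.9, 12.4 and 18.9 CPM in inflamed CD103+ and to 14.2, 16.5 and 18.5 CPM in inflamed CD11b+ libraries. The healthy libraries of both subsets were above all inflamed ones. Ehd3 alone made up most of the sums in inflamed CD103+ libraries, at 10.3, 11.1 and 14.5 CPM. The same held in inflamed CD11b+ libraries, at 11.9, 11.6 and 9.67 CPM, and in healthy CD11b+ libraries 1 and 3, at 26.5 and 31.0 CPM. Set against the tubule genes, the same sums were 1.17, 3.87 and 2.42 CPM per 1000 tubule CPM in healthy CD103+, 5.47, 5.17 and 2.20 in healthy CD11b+, 3.39, 3.04 and 5.26 in inflamed CD103+ and 3.39, 4.67 and 3.14 in inflamed CD11b+ libraries. On this scale the 4 groups overlapped. Without Ehd3, an alternative added after the data were seen, the sums were 0.618, 2.28 and 1.41 in healthy CD103+, 1.64, 2.60 and 0.517 in healthy CD11b+, 0.432, 0.306 and 1.24 in inflamed CD103+ and 0.556, 1.39 and 1.498 CPM per 1000 tubule CPM in inflamed CD11b+ libraries. The groups overlapped there too, but the inflamed CD103+ libraries then had the lowest mean, while with Ehd3 the healthy CD103+ libraries did. Set against the leukocyte genes they were 10.1, 54.9 and 10.0 CPM per 1000 leukocyte CPM in healthy CD103+ and 2.61, 3.47 and 3.15 in healthy CD11b+ libraries. Inflamed libraries of either subset were at 0.645 to 1.12 on that scale, below all healthy ones. Other lists were mixed in inflamed against healthy CD103+ cells, where 34.6% of all genes were higher and 27.8% lower. Of 6 tested podocyte genes 3 were lower and 1 higher, and of 8 stroma and mesangium genes 1 was lower and 1 higher. Of 2 platelet genes 1 was lower and 1 higher, and of 22 leukocyte genes 21 were higher. Without healthy library 2 the lower stroma gene (Pdgfrb), the higher platelet gene (Gp9) and 1 of the 14 tubule genes (Slc12a3) no longer passed. The leukocyte gene Spi1 then passed as lower (-0.66, adjusted p = 0.0175), in a fit where 57.4% of all genes passed. Mitochondrial genes took 9.84% to 12.1% of reads in healthy CD103+, 3.19% to 3.77% in healthy CD11b+ and 1.71% to 2.20% in inflamed libraries. The part of tubule RNA and of mitochondrial reads in the endothelial differences was not tested beyond the covariate fit above.

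**Figure D4:**
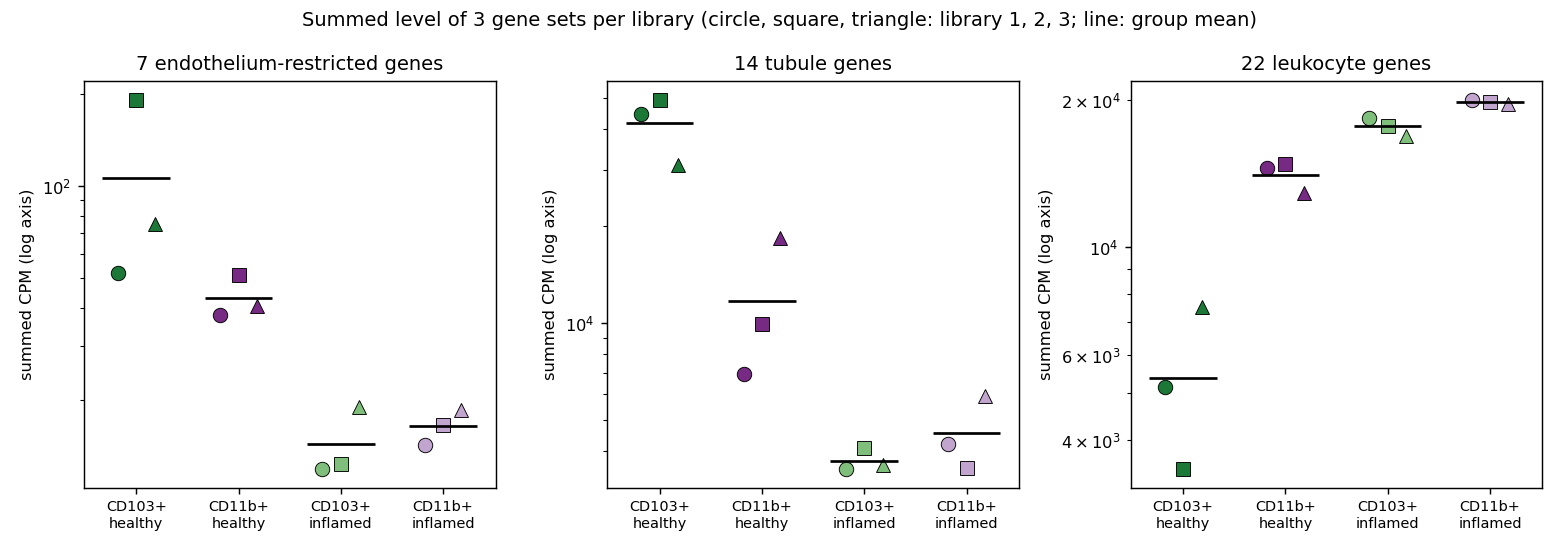
Summed CPM per library on log axes for the 7 endothelium-restricted genes, 14 tubule genes and 22 leukocyte genes, with group means as lines. Endothelial sums lay between 52.1 and 191.7 CPM in healthy CD103+ libraries and between 11.9 and 18.9 CPM in inflamed ones, tubule sums were highest in healthy CD103+ libraries and leukocyte sums were lowest there.

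The partners of these receptors were followed in a list of 12 genes of VEGF and angiopoietin signalling, 11 of them tested. In inflamed against healthy CD103+ cells 4 passed, all as lower, against 62.4% of all genes in either direction and 27.8% as lower, and the median log2 change was -0.43, against 0.16 for all genes. The same 4 passed without healthy library 2, with a median of -0.10, against 57.4% of all genes and a median of 0.14. Vegfa, the main ligand of Kdr, went from 17.2, 16.3 and 9.40 CPM to 1.16, 1.72 and 2.10 CPM (-3.08 ± 0.51, adjusted p = 0.000148), and did so without overlap. Vegfb, a ligand of Flt1, was also lower (-1.35 ± 0.37, adjusted p = 0.00616). Tie1, an orphan partner of Tek, went from 1.87, 9.19 and 3.39 CPM to 0.101, 0.0520 and 0.524 CPM (-4.48 ± 0.91, adjusted p = 0.000715), and its change was -3.87 without healthy library 2 (adjusted p = 0.00477). Ptprb, the phosphatase VE-PTP that restrains Tek, went from 5.47, 15.0 and 6.79 CPM to 0.0505, 0 and 1.44 CPM (-5.86 ± 1.49, adjusted p = 0.00434), or -5.43 without healthy library 2 (adjusted p = 0.0215). In CD11b+ cells Vegfb was lower (-1.21 ± 0.37, adjusted p = 0.0217), and Pgf, which encodes placental growth factor, a ligand of Flt1 and not of Kdr, was higher. Pgf rose from 0.338, 0.643 and 0 CPM to 5.48, 3.24 and 6.11 CPM (4.61 ± 1.12, adjusted p = 0.00612).

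Of 9 tested genes of endoglin signalling, 5 were higher and 2 lower in inflamed CD103+ cells, against 34.6% and 27.8% of all genes, with a median of 0.44 against 0.16. Without healthy library 2 the counts were 6 and 2, against 4655 and 3486 of all 14180 genes. The 2 that fell were Id1 (-3.78 ± 0.63, adjusted p = 0.000147) and Id3 (-3.07 ± 0.36, adjusted p = 7.21e-06), targets of BMP signalling. The receptor Tgfbr1 (0.78 ± 0.17, adjusted p = 0.00136) and the signal transducer Smad1 (0.79 ± 0.17, adjusted p = 0.00101) were among those that rose. These receptors and transducers are found in most cells, so the list is not one of endothelium. In CD11b+ cells Tgfbr1 (1.39 ± 0.17, adjusted p = 6.96e-05) and Bmpr2 (0.70 ± 0.20, adjusted p = 0.0141) rose, and Smad7, an inhibitor of TGF-β signalling, fell (-1.68 ± 0.24, adjusted p = 0.000163).

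Of 21 other tested genes of endothelium generally, 12 were lower and 3 higher in inflamed CD103+ cells, with a median log2 change of -3.08, against 27.8% of all genes lower and 34.6% higher. Without healthy library 2, 10 were lower and 3 higher, with Robo4 and Adgrl4 no longer passing. In that fit 3486 of all 14180 genes were lower and 4655 higher. The higher ones of the list, with and without that library, were Calcrl, Cd34 and Vwf. Without it they changed by 1.29 (adjusted p = 0.00255), 0.77 (adjusted p = 0.0142) and 1.01 (adjusted p = 0.0208) on the log2 scale. The lower ones with the smallest adjusted p were Adgrf5 (-3.29 ± 0.37, adjusted p = 5.01e-06), an adhesion receptor, Arhgef15 (-6.30 ± 0.87, adjusted p = 3.13e-05), a guanine nucleotide exchange factor, Cyyr1 (-6.39 ± 0.90, adjusted p = 3.53e-05) and Ramp2 (-3.83 ± 0.61, adjusted p = 0.000101), the co-receptor through which adrenomedullin acts. In CD11b+ cells 3 were lower and 1 was higher, against 15.8% and 20.1% of all genes. The lower ones were S1pr1, a receptor for sphingosine 1-phosphate that lymphocytes also carry (-1.42 ± 0.21, adjusted p = 0.000227), Icam2 and Mmrn2. Icam2 is an adhesion molecule of endothelium and leukocytes (-0.86 ± 0.24, adjusted p = 0.0124). The higher one was Cd34 (0.79 ± 0.22, adjusted p = 0.0123).

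Genes that separate vessel types were compared in the same way. In inflamed CD103+ cells all 7 tested arterial genes were lower, with a median of -4.09, against 27.8% of all genes. Without healthy library 2, where 3486 of all 14180 genes were lower, 6 were lower and Gja5 no longer passed. Efnb2 went from 3.20, 15.4 and 5.03 CPM to 0.454, 0.0520 and 1.35 CPM (-4.09 ± 0.86, adjusted p = 0.000994), and Dll4, a Notch ligand, from 2.40, 2.05 and 1.21 CPM to 0, 0 and 0.262 CPM (-5.01 ± 1.14, adjusted p = 0.00166). Cxcl12, a chemokine that stroma also makes, was lower as well (-3.66 ± 0.73, adjusted p = 0.000633). In CD11b+ cells 2 of the 7 were higher, against 20.1% of all genes. The 2 were Jag1, another Notch ligand (1.72 ± 0.44, adjusted p = 0.00863), and Bmx, a tyrosine kinase (4.13 ± 1.21, adjusted p = 0.0169). Jag1 was lower in CD103+ cells (-1.94 ± 0.44, adjusted p = 0.00183).

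Of 4 tested genes of glomerular endothelium other than Ehd3, 3 were lower in inflamed CD103+ cells and Nostrin was higher (0.85 ± 0.19, adjusted p = 0.00168). Among all genes 27.8% were lower and 34.6% higher. Plat, which encodes tissue plasminogen activator, went from 18.5, 143 and 42.6 CPM to 0.202, 11.7 and 6.24 CPM (-4.24 ± 1.496, adjusted p = 0.0303), and did not pass without healthy library 2 (-3.46, adjusted p = 0.113). Tbx3, a transcription factor, was lower in both subsets, by 5.34 ± 1.12 on the log2 scale in CD103+ (adjusted p = 0.000939) and by 4.65 ± 1.12 in CD11b+ cells (adjusted p = 0.00574). Pi16 was at 3.40, 22.5 and 6.73 CPM in healthy and at 1.21, 1.30 and 2.14 CPM in inflamed CD103+ libraries (-2.40 ± 0.54, adjusted p = 0.00169), or -1.66 without healthy library 2 (adjusted p = 0.00475). Only 1 of 5 further capillary and venous genes and 1 of 6 lymphatic genes were high enough to test. Ephb4, a venous receptor, was lower in inflamed CD103+ cells (-3.28 ± 0.87, adjusted p = 0.00495, and -3.07 with adjusted p = 0.0211 without healthy library 2), and Prox1 of lymphatic vessels did not pass (-2.93 ± 1.53, adjusted p = 0.112).

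Genes with a profile over the 12 libraries most like the mean profile of the 6 tested restricted genes were sought among the other tested genes. Unnamed gene models were left out. Likeness was the root mean square difference of log2 values centred on their mean. The nearest were Ctgf at 0.46, Epas1 at 0.51, Id1 at 0.53, Gng11 at 0.56, Aebp1 at 0.59, Ggnbp1 at 0.62, Tmem204 at 0.66 and Ptprg at 0.66 log2 units. Epas1, which encodes the hypoxia factor HIF-2α, was at 15.4, 39.9 and 16.6 CPM in healthy CD103+ and at 1.56, 0.312 and 2.18 CPM in inflamed CD103+ libraries. The 8 genes named were picked for nearness, so their distances cannot be set against those of the genes taken by name. From the same mean profile the restricted genes lay between 0.70 for Egfl7 and 0.84 for Kdr and 1.58 for Emcn. Flt1 and Pecam1, which were not part of that mean, were at 1.79 and 1.93.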

How the data were processed

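RNA of 12 sorted libraries was measured, and the deposited values form 1 table of log2 values for 26121 genes after 160 repeated lines were dropped. STAR 2.0.4b, Subread, featureCounts 1.4.5 and edgeR are named in the submitters' processing notes, with no role or order, and neither a build nor an annotation is given in the sources used here. Whole reads could be recovered from 100% of values within 0.05 reads, so the deposited log2 values were read as log2 CPM to which the authors had added 0.5 reads before scaling by library size. The limit of 3 reads covers counting error only.

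The 14180 genes that reached 1 CPM in 3 or more libraries were tested with limma 3.58.1 in R 4.3.3 (1 mean per group over 12 libraries, trended and robust empirical Bayes, two-sided, Benjamini-Hochberg adjustment within a comparison, threshold 0.05). The test was checked on simulated data with known changes. No fit imputed a sample. The 10 genes and 15 lists of 165 genes were chosen with earlier results of these data known. From each list up to 4 genes with the smallest adjusted p in either subset were named, with defining genes of cell types and the 8 genes nearest in profile. Erg, Sox17, Sox18, Tal1, Sele and Nphs1 were named after their values were seen, as defining genes at or near 0. Slc12a3, Calb1, Aqp2, Umod, Slc12a1, Robo4, Adgrl4, Calcrl, Vwf, Gja5, Pdgfrb, Gp9, Ppbp and Gp1ba were also named after their values were seen. Coordinates and exon lengths are from GENCODE M21 (GRCm38), in which 26004 IDs were found, and promoters from RefSeq (GRCm38.p6). Printed CPM come from the recovered reads. Summaries used Python 3.11.15 with pandas 2.3.3 and numpy 2.4.6, and plots matplotlib 3.10.9. Alternatives were other pseudocounts, filters, scalings and weights, voom, replicate blocks, only the groups compared, leaving out each library and, added after seeing the data, the tubule level as a covariate, the lists without healthy CD103+ library 2 and the sums without Ehd3.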

Additional observations from a re-analysis of the deposited data

Results flagged for a closer look

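The change of Emcn with nephritis differed between the subsets by a test of the difference itself. The CD11b+ change minus the CD103+ change was 4.87 ± 1.70 on the log2 scale (limma, adjusted p = 0.042), with inflamed values of 0.0505, 0 and 0.742 CPM in CD103+ and 0.106, 1.24 and 1.95 CPM in CD11b+ libraries. The call was near the threshold: it was lost in 8 of 12 fits that left out 1 library, and with voom (adjusted p = 0.199), no filter (0.0742), array weights (0.175), the random replicate block (0.0529) and the tubule covariate (0.801). Kdr differed in the same way, by 4.28 ± 1.11 (limma, adjusted p = 0.0101), and passed in all 12 of those fits but not with the tubule covariate (0.65, adjusted p = 0.940). Its 3 inflamed CD103+ libraries were all below the healthy ones, and the CD11b+ libraries overlapped between healthy and inflamed mice. Of 14 tubule genes, 11 also passed as higher in the test of the difference, with a median of 2.34.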

How the results depend on the processing

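Counts of endothelial genes that passed, and of all genes, moved as follows. In inflamed against healthy CD103+ cells 7 of 9 passed in every leave-one-out fit and in all alternatives but 4: 9 with leukocyte scaling, 8 with array weights, where Pecam1 passed as higher (0.61) beside 7 lower, 3 with at least 5 CPM in 3 libraries, where fewer were tested, and 0 with the tubule covariate, where 3 of all genes passed. In CD11b+ cells 3 passed with log2(CPM + 0.25), array weights, only the groups compared and 2 of the 12 leave-one-out fits, 1 passed with log2(CPM + 4) and with at least 5 CPM, and 0 with the covariate, and 2841 of all genes passed with leukocyte scaling and 3093 with the covariate. Between healthy subsets 6 passed with log2(CPM + 0.25), log2(CPM + 4) and leukocyte scaling, 5 with voom, 1 with array weights and 0 with the covariate (11217 of all genes with leukocyte scaling, 453 with the covariate). Between inflamed subsets 1 passed with either pseudocount, no filter, at least 5 CPM, equal medians, leukocyte scaling and the covariate, and 4 with array weights, where 4472 of all genes passed, against 4062 with only the groups compared. For the difference of the changes 1 passed with no filter, array weights and voom, 6 with leukocyte scaling and 0 with the covariate, where 8 of all genes passed. Leaving out 1 library gave 1 to 3 in each of the last 2 comparisons. The covariate fits that called 0 in limma had 0 at an unadjusted p under 0.05. The cause of these moves was not tested. On the recovered whole reads, voom called 9005 genes in CD103+ and 5313 in CD11b+ cells. Leukocyte scaling moved the median of all genes to -1.43 in CD103+ cells, -0.22 in CD11b+ cells, -1.496 and -0.21 between healthy and inflamed subsets and 1.23 for the difference, and the calls in CD103+ cells from 4911 higher and 3940 lower to 363 and 9969.

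Signs turned mostly near 0. In CD103+ cells Pecam1 was -1.29 with leukocyte scaling and -0.52 with the covariate, Flt1 was 0.43 with array weights and -0.67 to 0.15 with 1 library left out, and Kdr and Eng were 1.22 and 0.043 with the covariate. In CD11b+ cells Kdr was -0.048 and -0.095 with the 2 pseudocounts, -0.28 with leukocyte scaling, -0.56 with array weights, -0.16 with voom and -0.96 to 0.63 with 1 library left out. Pecam1 was 0.0026 with equal medians, 0.061 with array weights, 0.025 with voom and -0.26 to 0.31 with 1 library left out, and Cdh5 was 0.15 with the covariate and -0.68 to 0.061 with 1 left out. Between healthy subsets leukocyte scaling gave -0.42 for Pecam1 and -1.33 for Eng, the covariate 0.40 for Kdr and 0.32 for Ehd3, and leaving out 1 library -0.10 to 0.68 for Eng. Between inflamed subsets Egfl7 ran from -0.67 to 0.25 and Ehd3 from -0.21 to 0.036 with 1 left out. For the difference, leukocyte scaling gave 0.97 for Pecam1 and 0.74 for Flt1, the covariate 0.22 for Pecam1, -0.30 for Eng and -0.59 for Ehd3, and leaving out 1 library -0.63 to 0.0030 for Pecam1 and -0.095 to 0.75 for Ehd3.

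The labels do not say that library numbers mark mice, and same-numbered libraries correlated between -0.154 and 0.151 in their deviations, so the numbers were not taken to pair them. With the number as a fixed replicate block, 6 genes passed between healthy subsets, 2 between inflamed subsets and 3 for the difference, and with a random replicate block 1 passed between inflamed subsets and 1 for the difference. At these depths 3 reads are 0.112 to 0.254 CPM, so Emcn, Tek and Plvap in inflamed libraries rest on few reads. Reads were also few in inflamed CD103+ libraries 1, 2 and 3 for Kdr (6, 6 and 23), Eng (20, 10 and 7) and Egfl7 (10, 5 and 17).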

Other observations

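Transcription factors of endothelium gave mixed values. Of 17 listed, 9 were tested. Against 34.6% of all genes higher and 27.8% lower in inflamed CD103+ cells, 4 were higher and 2 lower. Without healthy library 2, where 57.4% of all genes passed, 3 were higher and 2 lower. Those higher were led by Fli1 (1.73 ± 0.22, adjusted p = 1.69e-05) and Hhex (1.87 ± 0.30, adjusted p = 0.000125), which blood cells also use. Those lower were Nr2f2 (-2.67 ± 0.23, adjusted p = 6.34e-07), known for venous endothelium, and Gata2 (-3.36 ± 0.67, adjusted p = 0.000674). Erg, Sox17, Sox18 and Tal1 were at most 1.69 CPM in any library and were not tested. In CD11b+ cells 3 passed, all as lower, against 15.8% of all genes lower. The 3 were Lyl1 (-2.55 ± 0.36, adjusted p = 0.000159), Ets1 (-1.10 ± 0.21, adjusted p = 0.0014) and Klf2 (-1.29 ± 0.30, adjusted p = 0.00462).

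Adhesion molecules of activated endothelium were tested for 4 of 6 genes. In inflamed CD103+ cells 1 was higher and 1 lower, against 34.6% and 27.8% of all genes. In inflamed CD11b+ cells 2 were higher, against 20.1% of all genes. Vcam1, which macrophages and stroma can also make, was at 1.35, 2.62 and 0.118 CPM in healthy and 24.1, 73.4 and 13.7 CPM in inflamed CD11b+ libraries (5.15 ± 1.28, adjusted p = 0.00931). In CD103+ cells its change of 3.11 ± 1.28 missed the threshold (adjusted p = 0.0522), with inflamed values of 2.17, 59.9 and 7.64 CPM. Icam1, also a gene of activated leukocytes, was higher in both, by 1.45 ± 0.18 (adjusted p = 1.01e-05) and 0.59 ± 0.18 (adjusted p = 0.0191) on the log2 scale. Cx3cl1, the chemokine fractalkine, which tubule cells can also make, was lower in inflamed CD103+ cells, from 10.5, 8.19 and 4.12 to 0.353, 0.728 and 1.61 CPM (-3.19 ± 0.70, adjusted p = 0.00124). Selp, a selectin of endothelium and platelets, did not pass in CD103+ (2.07 ± 1.27, adjusted p = 0.173) or CD11b+ cells (2.60 ± 1.27, adjusted p = 0.126). Sele, the selectin made by activated endothelium alone, was at most 0.594 CPM in any library. Of 5 platelet genes in the table, Pf4, Ppbp and Gp1ba were at most 0.944 CPM in any library, and Itga2b and Gp9 reached 3.47 and 1.79 CPM.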
